A study of Homo sapiens with 30 samples.

Results

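Transcript levels of 6 genes were followed in BEAS-2B cells exposed to smoke from a hookah (waterpipe). The genes were the cytokine genes IL6, IL11, IL1B, IL18 and CSF2 and ZFP36, the gene of an mRNA decay factor. They were taken by name, each name occurring once, from the 22538 gene names of the deposited expression files. All 6 passed the filter on low values and were among the 8531 genes tested.

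BEAS-2B is an established, virus-immortalised line of human bronchial epithelial cells. Each exposure lasted 30 min, on a rocker, with 1 of 4 smokes: charcoal alone (no shisha), herbal shisha on charcoal (a shisha without tobacco), tobacco shisha on charcoal, or tobacco shisha on an electric heater. The fifth group was the study's internal control, whose content is not given in the sources used here. Doses were the highest without LDH release, a sign of cell damage, at 24 h. RNA was taken 2 h and 24 h after exposure from 3 wells a group, which made 30 libraries in 10 groups. All wells hold the same cell line, and the labels do not say whether the wells of a group came from separate cultures, so the p-values below measure the spread between wells, which may be technical.

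Epithelial cells release cytokines within hours of an irritant. IL-6 and IL-11 signal through the shared receptor chain gp130, IL-1 beta and IL-18 are made as precursors that inflammatory caspases cleave, and CSF2 encodes GM-CSF, a growth and survival factor of myeloid cells. Many cytokine mRNAs are short-lived because their 3′ untranslated region (UTR) carries AU-rich elements, repeats of the pentamer AUUUA. The ZFP36 protein, tristetraprolin, binds such elements and recruits the CCR4-NOT deadenylase. The ZFP36 mRNA carries such elements too, and the kinase MK2 restrains the protein by phosphorylating it.

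The AU-rich stretches are shown because they are the feature through which ZFP36 is known to reach cytokine mRNAs. In the GENCODE transcripts of GRCh38, 5 of the 6 genes had the DNA pentamer ATTTA in the 3′ UTR, and IL18 had 0 in 343 bases. The count was 9 in IL11, 8 in CSF2, 6 in IL6, 6 in IL1B and 5 in ZFP36. The longer TTATTTATT, which contains ATTTA and is close to the optimal site of tristetraprolin, occurred 6 times in IL11, 3 times in CSF2, 2 times in IL1B, 1 time in ZFP36 and 0 times in IL6 and IL18. Counts took 1 strand and allowed overlaps. Of 7561 tested genes with an annotated 3′ UTR (median length 840 bases), 64.4% held ATTTA and 7.16% held TTATTTATT. The windows of 30 bases with most pentamers, all exonic and inside the 3′ UTR, are given 5′ to 3′ on the transcript's strand with ATTTA in capitals. They lie at chr7:22731925-22731954, plus strand (IL6), chr19:55365943-55365972, minus strand (IL11), chr2:112829995-112830024, minus strand (IL1B), chr5:132076076-132076105, plus strand (CSF2) and chr19:39409188-39409217, plus strand (ZFP36).
IL6: aagaaatATTTAtattgtATTTAtataatg
IL11: ccagatcttATTTATTTATTTAtttcagta
IL1B: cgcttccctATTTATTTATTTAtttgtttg
CSF2: aaaatATTTATTTATTTATTTATTTAagtt
ZFP36: cctttATTTAtgacgactttATTTAttcta
CSF2 had 5 pentamers run together in its window and IL11 and IL1B had 3 each, whereas those of IL6 and ZFP36 were spaced. A match describes letters and not a bound site.

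The promoters of IL6 and IL11 are shown as those of genes of 1 receptor family whose means gave different orders of the exposures at 2 h. For IL6 the wells of most pairs of exposures overlapped. Whether any motif match bears on these orders was not tested. The sequences run 5′ to 3′ up to the transcription start and are RefSeq's (GRCh38.p14, chr7:22726950-22727199, plus strand, for IL6, and chr19:55370464-55370713, minus strand, for IL11), with motif matches in capitals.
IL6: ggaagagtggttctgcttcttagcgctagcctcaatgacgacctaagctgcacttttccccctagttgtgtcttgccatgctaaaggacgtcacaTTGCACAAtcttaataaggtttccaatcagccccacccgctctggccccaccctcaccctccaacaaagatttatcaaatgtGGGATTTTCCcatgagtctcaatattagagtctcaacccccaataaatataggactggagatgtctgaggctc
IL11: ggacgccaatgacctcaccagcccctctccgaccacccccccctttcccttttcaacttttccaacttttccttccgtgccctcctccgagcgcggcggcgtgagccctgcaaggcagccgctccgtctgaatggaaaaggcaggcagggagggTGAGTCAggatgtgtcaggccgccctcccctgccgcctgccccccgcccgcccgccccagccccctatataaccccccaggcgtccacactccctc
In IL6 the capitals mark the C/EBP letters TTGCNNAA at -155 to -148 and an NF-kB motif at -73 to -64. In IL11 they mark the AP-1 letters TGANTCA at -96 to -90. On both strands of 27305 promoters of this length, 9.13% held the C/EBP letters, 5.05% the NF-kB motif and 6.6% the AP-1 letters. The same search took in TGACGTCA (the cyclic AMP response element, in 1.77% of promoters), the EGR letters GCGNGGGCG (8.25%), the CArG box of SRF (1.14%) and, on the gene's strand only, TATAAA (7.17%). Of these 7 motifs IL1B had the C/EBP letters alone, at -215 to -208, CSF2 and ZFP36 had none, and IL18 was not searched. No match says only that these letters are not in this window.

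The deposited values are FPKM, fragments scaled to transcript length and to the mapped fragments of the library, so levels can be set against each other between genes. They keep no read counts, and the depth behind each value is unknown. Tests used limma on log2(FPKM + 1), with p-values adjusted by Benjamini and Hochberg over all 8531 tested genes and calls made at an adjusted p under 0.05. Log2 changes below are on this scale, which understates changes of low genes. Fewer cells of a kind and less RNA per cell cannot be told apart in such bulk libraries. Library sums of FPKM were between 199985 and 220259. Of the epithelial markers KRT8, KRT18 and KRT19 were expressed, with a summed list level of 738 to 1208 FPKM over all libraries, and the other 3 listed in the files were under 1 FPKM everywhere. Of 9 fibroblast and mesenchymal markers 5 were expressed (COL1A1, COL1A2, PDGFRB, THY1 and VIM), with a summed level of 896 to 1220.0 FPKM, and DCN was at 0. Of 8 immune markers only CD14 and CD68 passed the filter (summed list level 15.1 to 33.1 FPKM), with CD3E, MS4A1 and ITGAM at 0, and the 5 endothelial markers stayed at a sum of 0.628 FPKM or less.

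At 2 h all 6 genes rose in all 4 exposures, and every exposed well lay above every control well for each of them. The share of all tested genes whose wells did not overlap was not counted. As the 6 genes were chosen with earlier results of these data known, their shared rise describes the choice as well. Over all tested genes, 24.4% were called after charcoal alone (8.16% higher, 16.2% lower), 38.2% after herbal shisha on charcoal (10.6% higher, 27.7% lower), 35.2% after tobacco shisha on charcoal (8.50% higher, 26.7% lower) and 34.0% after tobacco shisha on the electric heater (9.27% higher, 24.8% lower). The median log2 change of the 6 genes was 1.02, 1.24, 1.27 and 1.01 in that order of exposures, beside medians of -0.08, -0.07, -0.08 and -0.04 over all tested genes. The 4 comparisons share the same 3 control wells. The largest of the 24 changes were those of ZFP36 after the electric heater (log2 change 3.31) and of IL11 after charcoal alone (3.01), and the smallest were those of ZFP36 after charcoal alone (0.35) and of IL18 after the electric heater (0.36).

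**Figure D1:**
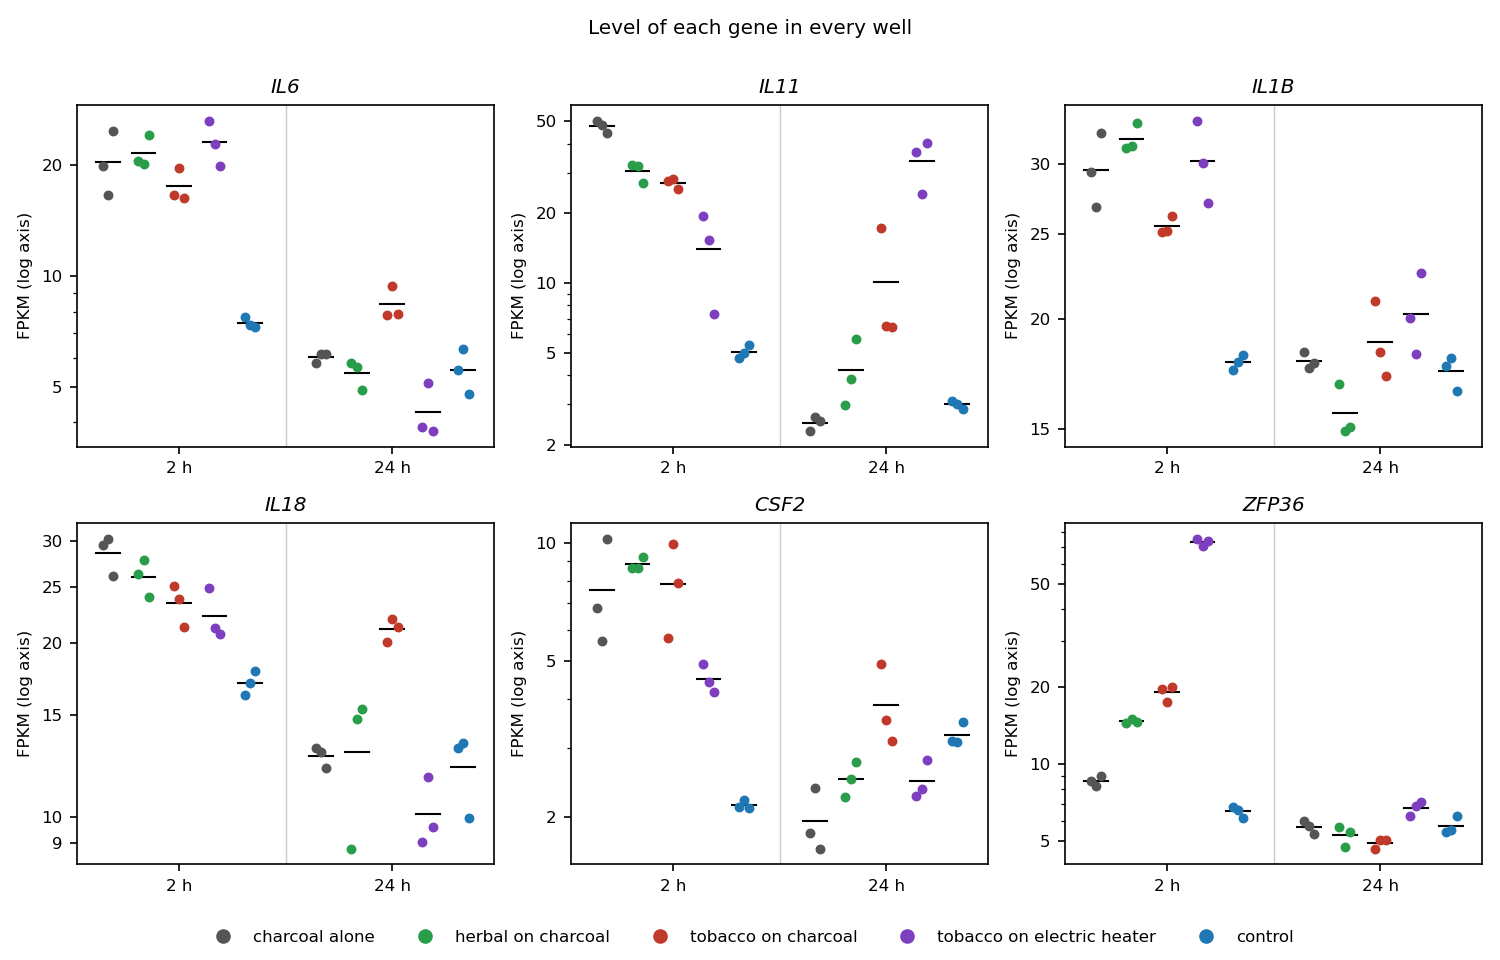
FPKM of the 6 genes (log axis) in each of the 30 wells, grouped by time on the x axis and coloured by exposure, with the group mean as a bar. At 2 h all exposed wells lie above the control wells in every panel, ZFP36 stands highest after the electric heater (70.8 to 75.4 FPKM), and at 24 h IL11 stands highest after the electric heater (24.2 to 40.3 FPKM).

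IL6 (chr7:22725884-22732002, plus strand) encodes a cytokine of the acute phase response. At 2 h its FPKM in the 3 wells was 19.9, 16.6 and 24.8 after charcoal alone, 20.5, 20.1 and 24.2 after herbal shisha on charcoal, 16.6, 19.7 and 16.3 after tobacco shisha on charcoal, and 26.4, 22.8 and 19.9 after the electric heater, against 7.71, 7.35 and 7.27 in control. Tobacco shisha on charcoal lay below all wells of herbal shisha and of the electric heater, and the other pairs of exposures overlapped. The difference from herbal shisha was not called (-0.28, adjusted p = 0.342). The log2 change from control was 1.33 after charcoal alone, 1.42 after herbal shisha, 1.13 after tobacco shisha on charcoal and 1.50 after the electric heater (SE 0.12 each), with adjusted p-values of 2.22e-08, 6.37e-09, 2.31e-07 and 3.17e-09 in the same order. The electric heater exceeded tobacco shisha on charcoal by 0.37 log2 units (adjusted p = 0.0343), a call that was lost without replicate 1 or 3 of tobacco shisha on charcoal (adjusted p = 0.0983 and 0.132), without replicate 1 or 2 of the electric heater (0.163 and 0.0632), and under both other scalings (0.0563 and 0.0675), when only the libraries of 2 h were fitted (0.0552) and without the filter (0.0612). Exons of IL6 overlap STEAP1B and AC073072.1 on the opposite strand, and reads from them cannot be told apart where strand is not recorded. STEAP1B was listed at 0.0562 FPKM or less in every library.

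At 24 h IL6 differed from control in the tobacco groups, in opposite directions. Its FPKM was 5.79, 6.12 and 6.15 after charcoal alone, 5.81, 5.66 and 4.89 after herbal shisha on charcoal, 7.85, 9.40 and 7.89 after tobacco shisha on charcoal, and 3.89, 5.12 and 3.79 after the electric heater, against 5.55, 6.32 and 4.78 in control. All wells with tobacco shisha on charcoal lay above the control wells, and 1 of the electric heater wells reached into the control range. IL6 rose by 0.52 log2 units after tobacco shisha on charcoal (SE 0.12, adjusted p = 0.00166) and fell by 0.32 after the electric heater (adjusted p = 0.0298). The fall was lost without electric heater replicate 1 or 3 (adjusted p = 0.106 and 0.123) or control replicate 1 or 2 (0.0621 and 0.149). The direct difference between these groups held: the electric heater gave 0.84 log2 units less than tobacco shisha on charcoal (95% interval -1.10 to -0.58, adjusted p = 1.09e-05). Charcoal alone and herbal shisha differed from control by 0.11 (-0.15 to 0.36) and -0.02 (-0.28 to 0.24).

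IL11 (chr19:55364389-55370463, minus strand) encodes a cytokine of the gp130 family linked to fibrosis. At 2 h its FPKM was 50.3, 48.3 and 44.3 after charcoal alone, 32.3, 32.0 and 27.1 after herbal shisha on charcoal, 27.5, 28.1 and 25.6 after tobacco shisha on charcoal, and 19.6, 15.3 and 7.34 after the electric heater, against 4.73, 4.99 and 5.40 in control. Charcoal alone stood above all others, herbal and tobacco shisha on charcoal overlapped, and the electric heater was lowest of the exposures with replicate 3 near control. Herbal shisha differed from charcoal alone by -0.63 log2 units, which was not called (adjusted p = 0.108). The electric heater was not tested against charcoal alone. The mean was 9.44 times control after charcoal alone and 2.79 times control after the electric heater. The log2 changes were 3.01, 2.38, 2.22 and 1.22 in this order (SE 0.28 each, adjusted p = 2.22e-08, 5.72e-07, 1.75e-06 and 0.00161). From the highest change down, IL11 was number 5, 21, 22 and 99 of the 8531 tested genes. Tobacco shisha on the electric heater gave 0.99 log2 units less than on charcoal (adjusted p = 0.013). Without electric heater replicate 3 this difference was 0.62 and not called (adjusted p = 0.128, range over all alternatives 0.00433 to 0.128). Tobacco shisha on charcoal lay 0.79 below charcoal alone (95% interval -1.38 to -0.21, adjusted p = 0.0543). That difference was called when only the libraries of 2 h were fitted (adjusted p = 0.0298) or with a common FPKM sum (0.0422).

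At 24 h the order of the exposures by mean IL11 was the reverse of that at 2 h. FPKM was 2.29, 2.62 and 2.52 after charcoal alone, 2.96, 3.86 and 5.75 after herbal shisha on charcoal, 17.3, 6.53 and 6.43 after tobacco shisha on charcoal, and 36.8, 24.2 and 40.3 after the electric heater, against 3.09, 3.00 and 2.87 in control. All wells of both tobacco groups lay above all control wells, and replicate 1 of tobacco shisha on charcoal stood apart from the other wells of its group. IL11 rose by 3.09 log2 units after the electric heater (SE 0.28, adjusted p = 2.56e-09, 11.3 times control) and by 1.34 after tobacco shisha on charcoal (adjusted p = 0.000536). Charcoal alone differed by -0.20 (95% interval -0.78 to 0.39) and herbal shisha by 0.35 (-0.24 to 0.93). The electric heater exceeded tobacco shisha on charcoal by 1.75 log2 units (adjusted p = 2.76e-05). From 2 h to 24 h IL11 rose by 1.27 log2 units in electric heater wells (adjusted p = 0.000377) and fell by 3.80 in charcoal wells (adjusted p = 3.10e-10). The change of IL11 against control was larger at 24 h than at 2 h by 1.87 after the electric heater, and the same difference was -3.20 after charcoal alone (interaction of exposure and time, adjusted p = 0.000371 and 3.43e-06).

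IL1B (chr2:112829751-112836903, minus strand) encodes the IL-1 beta precursor. At 2 h its FPKM was 29.4, 26.8 and 32.6 after charcoal alone, 31.3, 31.5 and 33.4 after herbal shisha on charcoal, 25.2, 25.2 and 26.2 after tobacco shisha on charcoal, and 33.6, 30.1 and 27.1 after the electric heater, against 17.5, 17.9 and 18.2 in control. Exposed groups overlapped except for tobacco shisha on charcoal, whose wells were below those of all other exposures. Its differences from herbal shisha (-0.32, adjusted p = 0.0655) and from charcoal alone (-0.20, 0.0795) were not called. The log2 changes were 0.69, 0.81, 0.49 and 0.72 (SE 0.08 each), with adjusted p-values of 3.98e-07, 3.07e-08, 3.53e-05 and 2.20e-07. The electric heater exceeded tobacco shisha on charcoal by 0.23 (adjusted p = 0.036). That call was lost on leaving out any of 5 of the 6 wells (highest adjusted p = 0.193, without electric heater replicate 1), all but replicate 3 of the electric heater, and under both other scalings (0.0898 and 0.118) and without the filter (0.0589).

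By 24 h the level of IL1B was near control in all exposures. Its FPKM was 18.4, 17.6 and 17.9 after charcoal alone, 16.9, 14.9 and 15.1 after herbal shisha, 21.0, 18.3 and 17.2 after tobacco shisha on charcoal, and 20.1, 18.3 and 22.6 after the electric heater, against 17.7, 18.1 and 16.6 in control. Only the electric heater wells were all above control, and IL1B rose there by 0.20 log2 units (adjusted p = 0.0285). The call was lost without electric heater replicate 1 or 3 (adjusted p = 0.0525 and 0.193), without control replicate 3 (0.106), and under both other scalings (0.0828 and 0.0811). The other 3 differences were 0.04, -0.15 and 0.10, in the order charcoal alone, herbal shisha and tobacco shisha on charcoal, with 95% intervals within -0.31 and 0.27.

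IL18 (chr11:112143251-112164117, minus strand) encodes a cytokine that epithelial cells hold as a precursor. At 2 h its FPKM was 29.5, 30.3 and 26.1 after charcoal alone, 26.3, 27.8 and 24.0 after herbal shisha on charcoal, 25.1, 23.9 and 21.3 after tobacco shisha on charcoal, and 24.9, 21.2 and 20.7 after the electric heater, against 16.2, 17.0 and 17.9 in control. Neighbouring exposures overlapped in this order. The log2 changes were 0.71, 0.58, 0.43 and 0.36 (SE 0.14 each), with adjusted p-values of 0.000432, 0.00182, 0.0167 and 0.0452. After the electric heater the call was lost whichever of the 6 wells was left out (adjusted p = 0.0545 to 0.176), with a pseudocount of 0.1 (0.0513), without the filter (0.0753) and with a common FPKM sum (0.0964). After tobacco shisha on charcoal it was lost without its replicate 1 (adjusted p = 0.0659) or control replicate 1 (0.0584).

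At 24 h IL18 was called higher than control after tobacco shisha on charcoal. Its FPKM was 13.1, 12.9 and 12.1 after charcoal alone, 8.79, 14.7 and 15.3 after herbal shisha, 20.1, 21.9 and 21.3 after tobacco shisha on charcoal, and 9.04, 11.7 and 9.61 after the electric heater, against 13.2, 13.4 and 9.96 in control. The wells with tobacco shisha on charcoal lay above all other wells of that time, and the other groups overlapped control. IL18 rose by 0.76 log2 units after tobacco shisha on charcoal (SE 0.14, adjusted p = 0.000125), and its level there did not differ detectably between 24 h and 2 h (-0.14, 95% interval -0.43 to 0.15). The electric heater gave 1.00 less than tobacco shisha on charcoal (adjusted p = 4.66e-06) and 0.24 less than control (-0.53 to 0.04). That difference from control was called without control replicate 3 (-0.37, adjusted p = 0.0328). Herbal shisha differed from control by 0.06, and by a called 0.30 without its replicate 1 (adjusted p = 0.0495). In control wells themselves IL18 fell by 0.46 log2 units between 2 h and 24 h (adjusted p = 0.0235), a call lost without control replicate 2 or 3 of 2 h (0.0583 and 0.0871) or replicate 3 of 24 h (0.144).

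CSF2 (chr5:132073790-132076170, plus strand) had the lowest control level of the 6 genes at 2 h. At 2 h its FPKM was 6.80, 5.62 and 10.2 after charcoal alone, 8.60, 8.62 and 9.17 after herbal shisha on charcoal, 5.70, 9.91 and 7.87 after tobacco shisha on charcoal, and 4.90, 4.41 and 4.15 after the electric heater, against 2.11, 2.20 and 2.11 in control. The charcoal groups overlapped each other, and the electric heater wells lay between them and control. The log2 changes were 1.41, 1.64, 1.46 and 0.80 (SE 0.16 each), with adjusted p-values of 3.66e-07, 2.91e-08, 2.03e-07 and 0.00039. Tobacco shisha on the electric heater gave 0.66 log2 units less than on charcoal (95% interval -0.99 to -0.33, adjusted p = 0.00436).

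At 24 h CSF2 was 1.81, 2.37 and 1.65 FPKM after charcoal alone, 2.24, 2.49 and 2.76 after herbal shisha, 4.90, 3.52 and 3.12 after tobacco shisha on charcoal, and 2.26, 2.35 and 2.79 after the electric heater, against 3.12, 3.10 and 3.49 in control. All wells of charcoal alone, herbal shisha and the electric heater lay below the control wells. The fall after charcoal alone was the called one (-0.53, SE 0.16, adjusted p = 0.0362). It was lost without any control well (adjusted p up to 0.119), without charcoal replicate 1 or 3 (0.103 and 0.144), and without the filter (0.061). Herbal shisha and the electric heater differed from control by -0.28 (-0.61 to 0.05) and -0.29 (-0.62 to 0.04). Tobacco shisha on charcoal lay 0.71 above charcoal alone (adjusted p = 0.000969) and the electric heater lay 0.47 below tobacco shisha on charcoal (adjusted p = 0.0187), the second being lost without replicate 1 of either group (-0.32, adjusted p = 0.123, without tobacco on charcoal, and -0.43, 0.0667, without the electric heater).

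ZFP36 (chr19:39406813-39409412, plus strand) separated the exposures at 2 h without overlap between any pair of groups. Its FPKM was 8.55, 8.17 and 8.93 after charcoal alone, 14.5, 14.9 and 14.6 after herbal shisha on charcoal, 19.6, 17.5 and 19.8 after tobacco shisha on charcoal, and 75.4, 70.8 and 73.8 after the electric heater, against 6.78, 6.62 and 6.16 in control. The mean was 11.2 times control after the electric heater and 1.31 times control after charcoal alone. The log2 changes were 0.35, 1.06, 1.41 and 3.31 (SE 0.06 each), with adjusted p-values of 0.000187, 2.95e-11, 1.58e-13 and 1.71e-21. Tobacco shisha gave 1.90 log2 units more on the electric heater than on charcoal (95% interval 1.77 to 2.03, adjusted p = 4.45e-16). On charcoal, herbal shisha gave 0.71 more than charcoal alone (adjusted p = 9.55e-08) and tobacco shisha 0.35 more than herbal shisha (adjusted p = 0.0118). The last difference was not called without herbal shisha replicate 3 (0.35, adjusted p = 0.0696, range over all alternatives 0.00581 to 0.0696).

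At 24 h ZFP36 was 5.98, 5.70 and 5.33 FPKM after charcoal alone, 5.68, 4.74 and 5.44 after herbal shisha on charcoal, 4.66, 5.06 and 5.04 after tobacco shisha on charcoal, and 6.27, 6.82 and 7.11 after the electric heater, against 5.42, 5.53 and 6.28 in control. The electric heater wells met the control range at 1 well, and tobacco shisha on charcoal lay below it. ZFP36 rose by 0.20 log2 units after the electric heater (SE 0.06, adjusted p = 0.00752) and fell by 0.19 after tobacco shisha on charcoal (adjusted p = 0.017). The fall was lost without tobacco on charcoal replicate 1 (adjusted p = 0.0859), without control replicate 3 (0.117) and when only the libraries of 24 h were fitted (0.0528). From 2 h to 24 h ZFP36 fell by 3.27 log2 units in electric heater wells, 1.75 with tobacco shisha on charcoal, 1.32 with herbal shisha and 0.52 with charcoal alone, all called, against a fall of 0.16 in control wells that was not (adjusted p = 0.0825).

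**Figure D2:**
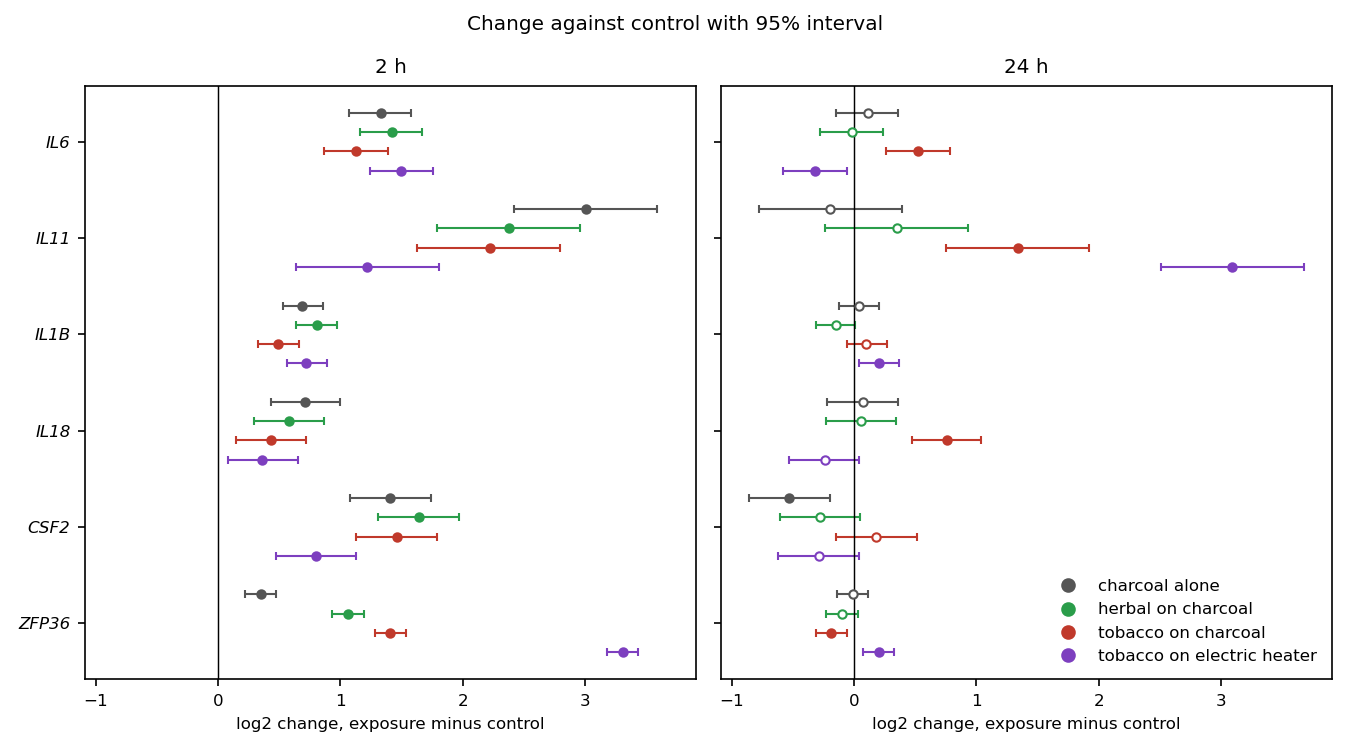
Log2 change of each gene against control (x axis, exposure minus control, on log2(FPKM + 1)) at 2 h and 24 h, with 95% intervals. Filled points passed an adjusted p under 0.05 and open points did not. ZFP36 spreads from 0.35 to 3.31 across the exposures at 2 h while IL11 runs in the opposite order, from 3.01 to 1.22.

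At 24 h the number of the 6 genes called against control was 1 after charcoal alone, 0 after herbal shisha on charcoal, 4 after tobacco shisha on charcoal and 4 after the electric heater. Over all tested genes 9.87%, 26.8%, 44.5% and 63.8% were called in the same order. In 1 direction the shares were 6.05%, 16.5%, 25.9% and 34.3% higher, and 3.82%, 10.4%, 18.6% and 29.5% lower. With 6 genes and shares of this size, nothing is read from the counts about these genes in particular. The median log2 change of the 6 genes was 0.01, -0.06, 0.35 and -0.02, and over all tested genes it was 0.02 to 0.04. The 2 tobacco groups had IL11 higher in common, whereas IL6 was higher on charcoal and lower on the heater and ZFP36 was lower on charcoal and higher on the heater. Of these, the fall of IL6 on the heater and that of ZFP36 on charcoal were each lost on leaving out single wells, as given above. Marker levels moved at this time too. The summed epithelial markers were 1131 to 1208 FPKM after charcoal alone, 738 to 812 after herbal shisha, 771 to 885 after tobacco shisha on charcoal and 768 to 829 after the electric heater, against 867 to 1030.4 in control. Summed mesenchymal markers were 955 to 993, 1014 to 1220.0, 1044 to 1095 and 905 to 975 FPKM in the same order, against 1097 to 1186 in control. Of the 5 tested mesenchymal markers 3, 0, 0 and 0 rose and 1, 1, 4 and 4 fell. Their part in the 24 h results was not tested.

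Between 24 h and 2 h, all 6 genes changed in charcoal wells (42.5% of all tested genes called), in herbal shisha wells (50.5%) and in electric heater wells (67.8%), 5 of 6 in wells with tobacco shisha on charcoal (55.4%) and 2 of 6 in control wells (16.9%). All of these changes were falls apart from the rise of IL11 in electric heater wells, and IL18 with tobacco shisha on charcoal was the gene without a call. The control calls were IL18, given above, and IL6 (-0.37, adjusted p = 0.0425), which was lost on leaving out any of 5 of the 6 control wells, all but replicate 2 of 24 h (highest adjusted p = 0.186, without replicate 3 of 24 h), and without the filter (0.071). Tested as an interaction of exposure and time, the change against control differed between 24 h and 2 h for 6, 6, 4 and 6 of the 6 genes after charcoal alone, herbal shisha, tobacco shisha on charcoal and the electric heater (23.2%, 32.3%, 41.1% and 57.6% of all tested genes). Scaling the libraries by the median of ratios brings the median of the changes over all genes close to no change by its construction. That median was 0.01 (beside 0.11) with herbal shisha and 0.01 (beside 0.12) with tobacco shisha on charcoal.

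Between exposures at 2 h, 1 of the 6 genes, ZFP36, was called for herbal shisha on charcoal against charcoal alone (24.4% of tested genes called), for tobacco shisha on charcoal against charcoal alone (18.0%) and for tobacco against herbal shisha on charcoal (0.610%). For the electric heater against tobacco shisha on charcoal 5 of 6 were called (23.3%): ZFP36, IL6 and IL1B higher, IL11 and CSF2 lower. IL18 did not pass (-0.07, 95% interval -0.36 to 0.22). At 24 h, 0 of 6 were called for herbal shisha against charcoal alone (31.5%), 5 of 6 for tobacco shisha on charcoal against charcoal alone (44.1%), 3 of 6 for tobacco against herbal shisha on charcoal (5.12%) and 5 of 6 for the electric heater against tobacco shisha on charcoal (47.8%). The 3 genes higher with tobacco than with herbal shisha on charcoal at 24 h were IL6 (0.54, adjusted p = 0.0145), IL11 (0.99, 0.0433) and IL18 (0.70, 0.00754). When only the libraries of 24 h were fitted none of the 3 was called (adjusted p = 0.0532, 0.126 and 0.0862), and 7 genes in all were, beside 437 in the fit of all libraries. The calls of IL6 and IL11 were also lost without tobacco on charcoal replicate 1 (adjusted p = 0.0687 and 0.333, with a difference of 0.56 for IL11), that of IL6 without replicate 2, and that of IL11 without herbal shisha replicate 1 or 2 (0.181 and 0.117). IL18 differed by 0.46 without herbal shisha replicate 1.

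**Figure D3:**
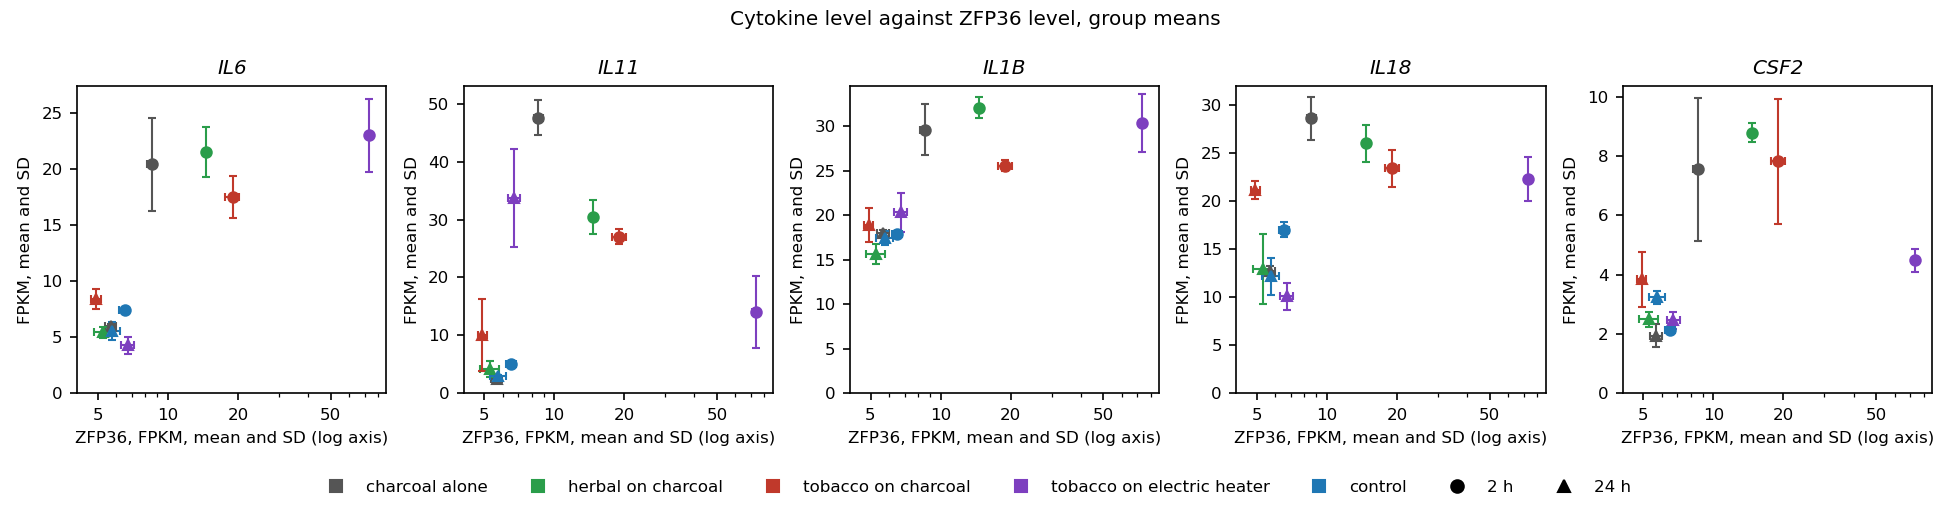
Mean FPKM of each cytokine (y axis, linear) against mean FPKM of ZFP36 (x axis, log) in the 10 groups, with SD over 3 wells on both axes, coloured by exposure and shaped by time. The electric heater group of 2 h lies far to the right (73.3 FPKM of ZFP36), where IL6 (23.0 FPKM) and IL1B (30.3 FPKM) are as high as after charcoal alone while IL11 (14.1 FPKM) and CSF2 (4.48 FPKM) are lower.

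Across the 5 groups of 2 h the level of ZFP36 and the cytokine levels followed different orders. ZFP36 was lowest in control, then charcoal alone, herbal shisha, tobacco shisha on charcoal and the electric heater. By their means, IL11 and IL18 had the exposures in the opposite order, with control lowest. The wells of neighbouring exposures overlapped for IL18, as did those of herbal and tobacco shisha on charcoal for IL11. The correlation of log2 group means with ZFP36 at 2 h was -0.01 for IL11, 0.08 for IL18, 0.12 for CSF2, 0.51 for IL1B and 0.61 for IL6 (Pearson r over 5 means, a description that includes the shared control). Between IL11 and IL18 it was 0.98, and between IL6 and IL1B 0.98. At 24 h r between IL6 and IL18 was 0.97 and between IL6 and IL11 -0.35. With ZFP36 at 24 h r was -0.88 for IL6, -0.85 for IL18, -0.47 for CSF2, 0.53 for IL1B and 0.55 for IL11, again over 5 means. By the number of ATTTA pentamers in the 3′ UTR, the log2 changes at 2 h were 1.22 to 3.01 for IL11 (9 pentamers), 0.80 to 1.64 for CSF2 (8), 1.13 to 1.50 for IL6 (6), 0.49 to 0.81 for IL1B (6) and 0.36 to 0.71 for IL18 (0). ZFP36 itself, with 5 pentamers, changed by 0.35 to 3.31 and falls outside this order. The order did not hold after the electric heater, where IL6 changed by 1.50, IL11 by 1.22 and CSF2 by 0.80. After charcoal alone IL18 (0.71) was slightly above IL1B (0.69). Of the longer TTATTTATT, IL6 had 0 matches and IL1B had 2, while IL6 changed more than IL1B after every exposure. The pentamer counts were not scaled to the length of the 3′ UTR, which was 318 bases in CSF2 and 1618 in IL11. With so few genes this is a description.

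The genes whose 10 group means were most like those of ZFP36 were the growth-factor response genes EGR4 (r = 0.987), EGR2 (0.983), EGR1 (0.979), IER2 (0.967) and FOS (0.966). None of the 5 cytokines was among them. For IL6 they included ADM (0.982), the gene of adrenomedullin, NUAK2 (0.982), ENC1 (0.962) and FAM212B (0.959). For IL11 they were the MAP kinase phosphatase gene DUSP7 (0.977), MFSD2A (0.972), CDC42SE1 (0.971), PLAUR (0.969), the urokinase receptor, and PANX1 (0.964). IL1B was most like the nuclear receptor gene NR4A3 (0.972), SOWAHC (0.970), GPR3 (0.968), NR4A1 (0.967) and FOXC1 (0.966). For CSF2 they were the BMP antagonist gene GREM1 (0.962), F3 (0.951), tissue factor, SERTAD2 (0.951), FAM47E (0.950) and CSRP1 (0.947). The partners of IL18 (0.922 to 0.966) included IL6 itself (0.926) and the tight junction gene CLDN1 (0.922).

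**Figure D4:**
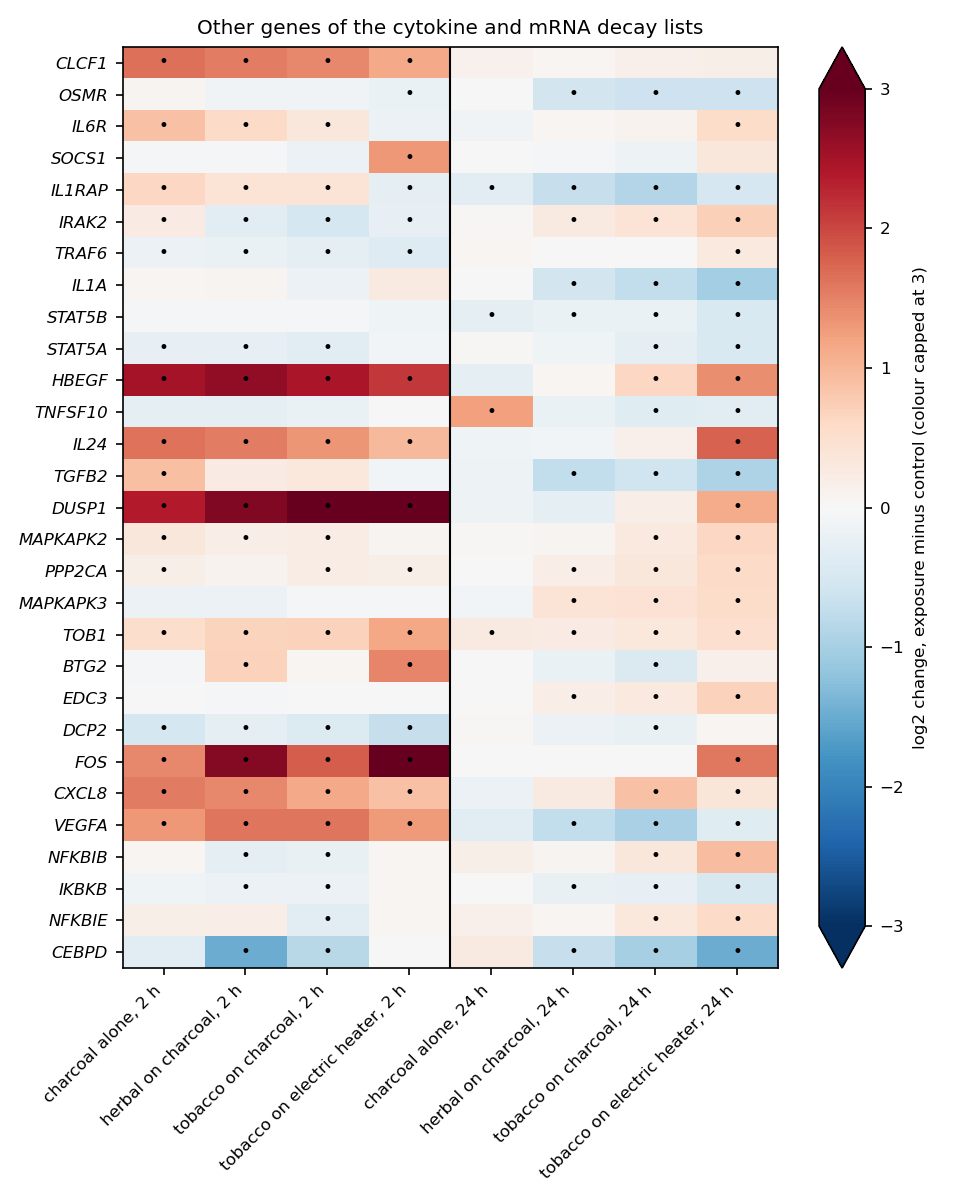
Log2 change against control (colour, capped at 3 either way) of the named genes of 8 cytokine and mRNA decay lists in the 8 comparisons, with a dot where the adjusted p was under 0.05. DUSP1 and HBEGF are high in all 4 columns of 2 h, DCP2 is low there, and OSMR and IL1RAP are low in most columns of 24 h.

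Of 11 tested genes of the IL-6 family list, without IL6 and IL11, 2 rose in each exposure at 2 h and 0, 0, 0 and 3 fell (charcoal alone, herbal shisha, tobacco shisha on charcoal, electric heater), with list medians of 0.01, -0.05, -0.06 and -0.12. Beside these and the list counts of 2 h that follow stand the shares of all tested genes, which were 8.16%, 10.6%, 8.50% and 9.27% higher and 16.2%, 27.7%, 26.7% and 24.8% lower. The 3 falls of 11 after the electric heater are near that share. All lists were chosen with earlier results of these data known, and the genes named from them had the smallest p-values. The list counts therefore describe the choice as well. CLCF1, another gp130 ligand, averaged 23.9 ± 1.65, 21.8 ± 0.323, 20.3 ± 1.19 and 16.5 ± 3.97 FPKM in the exposures, against 6.86 ± 0.316 FPKM in control (SD, n = 3 each). Its log2 changes were 1.66, 1.54, 1.43 and 1.13, in the same falling order as those of IL11. IL6R, the IL-6 receptor, rose by 0.88, 0.58 and 0.34 log2 units in the charcoal groups and was not called after the electric heater (-0.18). The rise with tobacco shisha on charcoal was lost without its replicate 2 (adjusted p = 0.077) or control replicate 1 (0.0752). SOCS1, a feedback inhibitor of JAK kinases, rose after the electric heater by 1.30 log2 units (adjusted p = 1.55e-06) to 2.85 ± 1.53 FPKM, against 0.492 ± 0.129 FPKM in control. With a pseudocount of 0.1 these low genes had larger changes, up to 1.41 for IL6R after charcoal alone and 2.22 for SOCS1. At 24 h OSMR, the receptor chain of oncostatin M, fell by 0.54, 0.63 and 0.61 log2 units after herbal shisha, tobacco shisha on charcoal and the electric heater (adjusted p = 2.16e-06, 5.17e-08 and 9.28e-09), and differed by 0.02 after charcoal alone (adjusted p = 0.888).

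In the IL-1 list 9 genes beside IL1B and IL18 were tested. At 2 h 2, 1, 1 and 0 rose and 1, 2, 4 and 3 fell, in the same order of exposures, with medians of -0.07 to -0.17. All tested genes were lower in 16.2%, 27.7%, 26.7% and 24.8%, and counts of 9 genes are too few to read against these. IL1RAP, the accessory chain of the IL-1 receptor, rose by 0.62, 0.41 and 0.40 log2 units in the charcoal groups at 2 h and fell by 0.26 after the electric heater (adjusted p = 0.033). That fall was lost without electric heater replicate 3 (-0.14, adjusted p = 0.269) or control replicate 1 or 2 (0.108 and 0.106), without the filter (0.054) and with median-of-ratios scaling (0.0966). At 24 h IL1RAP fell by 0.35, 0.70, 0.88 and 0.51 after charcoal alone, herbal shisha, tobacco shisha on charcoal and the electric heater. The fall after charcoal alone (adjusted p = 0.0194) was lost without replicate 2 of charcoal (0.0999) or of control (0.104) and when only the libraries of 24 h were fitted (0.0538). IL1A, which encodes IL-1 alpha, did not follow IL1B: its 2 h changes were 0.05, 0.08, -0.17 and 0.28, none of them called. At 24 h IL1A averaged 0.621 ± 0.213 FPKM with tobacco shisha on charcoal and 0.331 ± 0.135 with the electric heater, against 1.71 ± 0.412 in control (falls of 0.74 and 1.02 log2 units, adjusted p = 0.000222 and 1.45e-06). With a pseudocount of 0.1 the changes in these 2 tobacco groups were -1.34 and -2.09. IL1A was also called lower after herbal shisha at 24 h (-0.55, adjusted p = 0.00667) and was not called after charcoal alone (0.01). IRAK2, a kinase of the IL-1 receptor pathway, fell with tobacco shisha on charcoal at 2 h (-0.53, adjusted p = 4.99e-05, or -0.83 with a pseudocount of 0.1). It also fell after herbal shisha (-0.35, 0.0031) and the electric heater (-0.25, 0.0338), and rose after charcoal alone (0.25, 0.0403). At 24 h IRAK2 rose after the electric heater (0.72, adjusted p = 2.19e-07), tobacco shisha on charcoal (0.40, 0.000731) and herbal shisha (0.26, 0.0288). Without the filter the calls after charcoal alone and the electric heater at 2 h and herbal shisha at 24 h were lost (0.0655, 0.0555 and 0.05). Of the list around CSF2 only STAT5A and STAT5B, which GM-CSF receptors activate, were tested. STAT5A or STAT5B fell in every comparison with control except the electric heater at 2 h (0 of 2), and neither rose. Over all tested genes the share lower was 16.2% to 27.7% at 2 h and 3.82% to 29.5% at 24 h, and nothing is read from a list of 2. The falls of STAT5A after charcoal alone and herbal shisha at 2 h were lost with median-of-ratios scaling (adjusted p = 0.0911 and 0.0829), and each was lost without 1 exposed well (charcoal replicate 2, 0.0758, and herbal shisha replicate 1, 0.0634). The fall of STAT5A with tobacco shisha on charcoal at 24 h (-0.26, adjusted p = 0.00515) was lost without replicate 1 of that group (-0.16, adjusted p = 0.0677).

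Of 6 tested genes of the list of other epithelial cytokines 3, 3, 2 and 3 rose at 2 h and none fell (8.16%, 10.6%, 8.50% and 9.27% of all tested genes higher), with medians of 0.61, 0.40, 0.33 and 0.32. HBEGF, an EGF receptor ligand, reached 109 ± 4.56, 122 ± 6.17, 106 ± 5.02 and 86.7 ± 27.9 FPKM, against 18.5 ± 0.269 FPKM in control. IL24, a cytokine of the IL-10 family, rose by 1.62, 1.53, 1.32 and 0.97 log2 units at 2 h, again in falling order, and by 1.77 at 24 h after the electric heater (adjusted p = 1.01e-07), where the other 3 exposures were not called. At that time IL24 stood at 3.17 ± 0.254 FPKM after the electric heater, against 0.234 ± 0.178 in control. As IL24 was near 0 in control, its changes were larger with a pseudocount of 0.1 (3.83, 3.71, 3.42 and 2.73 at 2 h, 3.41 at 24 h). TGFB2, a growth factor gene, rose after charcoal alone at 2 h (0.90, adjusted p = 1.64e-05) and fell by 0.75, 0.60 and 0.92 at 24 h after herbal shisha, tobacco shisha on charcoal and the electric heater. TNFSF10, which encodes TRAIL, rose after charcoal alone at 24 h (1.22, adjusted p = 3.16e-06, or 1.93 with a pseudocount of 0.1).

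Among RNA-binding regulators of AU-rich mRNAs and their kinases and phosphatases, 14 genes beside ZFP36 were tested. Of these 5, 2, 4 and 4 rose at 2 h and 1, 2, 2 and 4 fell, with medians of 0.01, -0.01, 0.02 and -0.08, beside 8.16%, 10.6%, 8.50% and 9.27% of all tested genes higher and 16.2%, 27.7%, 26.7% and 24.8% lower. DUSP1, a phosphatase of p38 and JNK whose own mRNA carries AU-rich elements, followed the order of ZFP36. It averaged 112 ± 14.1, 147 ± 16.3, 193 ± 10.5 and 526 ± 50.9 FPKM, against 20.7 ± 1.38 in control (log2 changes 2.38, 2.77, 3.16 and 4.60). MAPKAPK2, which encodes MK2, rose by 0.35, 0.20 and 0.23 in the charcoal groups at 2 h and was not called after the electric heater (0.08, adjusted p = 0.192). At 24 h MAPKAPK2 rose by 0.63 after the electric heater and by 0.30 after tobacco shisha on charcoal (adjusted p = 1.88e-10 and 3.01e-05). MAPKAPK3, which encodes the related kinase MK3, rose by 0.40, 0.44 and 0.54 at 24 h after herbal shisha, tobacco shisha on charcoal and the electric heater.

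In the list of deadenylation, decapping and exonuclease genes 21 were tested, of which 2, 3, 1 and 4 rose and 5, 5, 5 and 7 fell at 2 h, with medians of -0.06 to 0.01. The falls are near the shares of all tested genes that fell (16.2%, 27.7%, 26.7% and 24.8%). TOB1 and BTG2, whose proteins tie RNA-binding proteins to the CCR4-NOT deadenylase, rose after the electric heater by 1.16 and 1.46 log2 units (adjusted p = 8.84e-14 and 2.46e-12). TOB1 also rose in the charcoal groups (0.52, 0.67 and 0.69), and BTG2 after herbal shisha (0.69). DCP2, the decapping enzyme, fell by 0.52, 0.26, 0.42 and 0.70 log2 units. EDC3, a decapping enhancer gene, rose by 0.68 after the electric heater at 24 h (adjusted p = 5.94e-11). It also rose at 24 h after tobacco shisha on charcoal (0.30, adjusted p = 2.74e-05) and herbal shisha (0.20, 0.00387). The fall of DCP2 after herbal shisha was not called with median-of-ratios scaling (-0.18, adjusted p = 0.062).

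Of 15 tested genes of the list of other transcripts with AU-rich elements reported to bind ZFP36, 11, 8, 8 and 10 rose at 2 h and 0, 0, 2 and 1 fell, with medians of 0.64, 0.85, 0.56 and 0.63. Over all tested genes 8.16%, 10.6%, 8.50% and 9.27% were higher. This list was chosen with earlier results of these data known, so its counts describe the choice as well and are no test of ZFP36 targets. DUSP1 belongs to this list too. CXCL8, a neutrophil attractant, had log2 changes of 1.55, 1.44, 1.14 and 0.87 at 2 h, falling in the order of IL11. VEGFA, an angiogenic factor gene, rose by 1.30, 1.60, 1.61 and 1.27. FOS averaged 226 ± 42.5 FPKM after the electric heater and 3.50 to 10.2 FPKM after the other exposures, against 0.642 ± 0.142 in control, with herbal shisha above tobacco shisha on charcoal, unlike ZFP36. At 24 h CXCL8 rose most with tobacco shisha on charcoal, to 114 ± 22.3 FPKM against 61.4 ± 0.969 in control (0.87, adjusted p = 8.05e-07), the exposure with which IL6 and IL18 were higher as well. The list of NF-kB subunits, kinases and inhibitors, which also holds CEBPD, had 9 tested genes. Of these 3, 0, 0 and 0 rose at 2 h and 0, 3, 5 and 1 fell, with medians of 0.16, -0.18, -0.22 and 0.07. Beside them 8.16%, 10.6%, 8.50% and 9.27% of all tested genes were higher and 16.2%, 27.7%, 26.7% and 24.8% lower. CEBPD, a C/EBP factor gene on that list, fell after herbal and tobacco shisha on charcoal at 2 h (by 1.50 and 0.84 log2 units) and differed by 0.02 after the electric heater.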

How the data were processed

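RNA was measured in 30 libraries of BEAS-2B cells, 3 wells for each of 10 groups of exposure and time. Groups come from the treatment and time labels. The deposited files give FPKM per gene, which the authors computed with HISAT2 2.1.0 and StringTie 1.3.4d on hg38, per the submitters' processing notes. The library kit was TruSeq RNA, per the labels' protocols, and no source used here gives the strand setting of the counting. The deposited FPKM values keep no read counts and show no common step in their low values, so depth is unknown and no count test was used. A matrix of the whole series was not used.

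Of 29190 rows a file, the row with the highest mean was kept for a repeated name, which left 22538 names. Of 27 names damaged into date numbers 26 were recovered from the accession. Tests took the 8531 genes that reached 1 FPKM in 3 or more libraries. limma 3.58.1 in R 4.3.3 fitted 10 group means of log2(FPKM + 1) over all 30 libraries (20 residual degrees of freedom) with an intensity trend, and p-values were adjusted by Benjamini and Hochberg over all tested genes for each comparison. The fit was tested on simulated data with known changes. Sequence windows, motifs and levels were computed with Python 3.11.15 and pandas 2.3.3.

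The 6 genes and the lists were chosen with earlier results of these data known. The rule for names took the 6 genes everywhere, the 4 genes with the smallest p over the comparisons with control in each list, and the 5 genes most like each of the 6 over 10 group means. Alternatives were a pseudocount of 0.1, no filter, a replicate block, summed rows for repeated names, median-of-ratios scaling, fits within a time, leaving out each well and, added after seeing the data, scaling to a common FPKM sum. List genes that matched no name were not analysed here. A gene that the likeness rule also named is not reported here.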

Additional observations from a re-analysis of the deposited data

Results flagged for a closer look

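For most of these genes the change against control differed between the 2 times. The change against control at 24 h, minus that at 2 h, was tested as an interaction of exposure and time, and 22 of the 24 tests passed. Of all tested genes 23.2%, 32.3%, 41.1% and 57.6% passed for charcoal alone, herbal shisha on charcoal, tobacco shisha on charcoal and the electric heater, so a call by itself does not set these genes apart. Values are log2 differences, and those below 0 mean a smaller change against control at 24 h.

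For IL6 the values were -1.22, -1.43, -0.61 and -1.82 for charcoal alone, herbal shisha on charcoal, tobacco shisha on charcoal and the electric heater (adjusted p = 2.05e-05, 1.98e-06, 0.00827 and 2.18e-08). For IL1B they were -0.65, -0.96, -0.39 and -0.52 for charcoal alone, herbal shisha on charcoal, tobacco shisha on charcoal and the electric heater (adjusted p = 0.000153, 1.06e-06, 0.00804 and 0.000391). CSF2 had -1.94, -1.92, -1.28 and -1.09 for charcoal alone, herbal shisha on charcoal, tobacco shisha on charcoal and the electric heater (adjusted p = 1.36e-06, 1.17e-06, 0.000121 and 0.000268). ZFP36 had -0.36, -1.16, -1.60 and -3.11 for charcoal alone, herbal shisha on charcoal, tobacco shisha on charcoal and the electric heater (adjusted p = 0.00433, 5.17e-09, 1.92e-11 and 1.68e-17). For each of these 4 genes every exposure had a smaller change at 24 h.

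IL11 had -3.20, -2.03 and 1.87 for charcoal alone, herbal shisha on charcoal and the electric heater (adjusted p = 3.43e-06, 0.00051 and 0.000371), so its change grew after the electric heater while it shrank after charcoal alone and herbal shisha. Tobacco shisha on charcoal was not called for IL11 (-0.88, adjusted p = 0.0839), but was without its replicate 1 of 24 h (-1.31, adjusted p = 0.00445). IL18 had -0.64, -0.52 and -0.61 for charcoal alone, herbal shisha on charcoal and the electric heater (adjusted p = 0.0193, 0.0436 and 0.0109). The call for herbal shisha was lost on leaving out any of 8 of the 12 wells (without replicate 1 of 24 h the value was -0.29, adjusted p = 0.147) and without the filter (0.0759), and that for charcoal alone without control replicate 1 or 2 of 24 h (adjusted p = 0.0523 and 0.0554). With tobacco shisha on charcoal the value for IL18 was 0.32 (95% interval -0.08 to 0.73).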

How the results depend on the processing

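All 24 directions at 2 h held under the alternatives run, and so did the calls, except those of IL18 after both tobacco exposures. The 24 h results of the electric heater on IL11 and of tobacco shisha on charcoal on IL6, IL11 and IL18 kept their calls as well. FPKM without counts, 3 wells a group and 1 cell line limit the precision, small changes at 24 h most of all. Pairing was checked by correlating the deviations of same-numbered wells, and 0 of 21 comparisons had every pair over 0.1 (r -0.217 to 0.231). In 28 of 63 checks a well was closest to the well of its own number in the other group. These checks count the same libraries in several comparisons, and with 3 wells to choose from 1 in 3 would match without pairing. The fit with the replicate number as a block kept all 50 counts within 1.5 times and changed no call of the 6 genes or the named list genes.

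Leaving out 1 well, the number of genes called ranged from 511 to 602 (beside 842) for charcoal alone against control, 24 h, from 1420 to 2317 (beside 2289) for herbal on charcoal against control, 24 h, from 1364 to 1807 (beside 2083) for herbal on charcoal against charcoal alone, 2 h, from 980 to 1191 (beside 1536) for tobacco on charcoal against charcoal alone, 2 h, from 4 to 57 (beside 52) for tobacco on charcoal against herbal on charcoal, 2 h, from 1237 to 1991 (beside 1991) for tobacco on electric heater against tobacco on charcoal, 2 h, from 1770 to 2859 (beside 2687) for herbal on charcoal against charcoal alone, 24 h, from 45 to 746 (beside 437) for tobacco on charcoal against herbal on charcoal, 24 h, from 885 to 1071 (beside 1440) for 24 h against 2 h, control. The number of the 6 genes called ranged from 0 to 1 (beside 1) for charcoal alone against control, 24 h, from 0 to 1 (beside 0) for herbal on charcoal against control, 24 h, from 2 to 4 (beside 4) for tobacco on electric heater against control, 24 h, from 1 to 2 (beside 1) for herbal on charcoal against charcoal alone, 2 h, from 1 to 2 (beside 1) for tobacco on charcoal against charcoal alone, 2 h, from 0 to 1 (beside 1) for tobacco on charcoal against herbal on charcoal, 2 h, from 3 to 4 (beside 5) for tobacco on electric heater against tobacco on charcoal, 2 h, from 0 to 1 (beside 0) for herbal on charcoal against charcoal alone, 24 h, from 1 to 5 (beside 3) for tobacco on charcoal against herbal on charcoal, 24 h, from 0 to 2 (beside 2) for 24 h against 2 h, control. Differences that were not called and changed sign on leaving out 1 well ranged from -0.06 to 0.14 for IL18 in charcoal alone against control, 24 h, from -0.05 to 0.04 for ZFP36 in charcoal alone against control, 24 h, from -0.11 to 0.07 for IL6 in herbal on charcoal against control, 24 h, from -0.07 to 0.30 for IL18 in herbal on charcoal against control, 24 h, from -0.05 to 0.23 for IL6 in herbal on charcoal against charcoal alone, 2 h, from -0.11 to 0.27 for CSF2 in tobacco on charcoal against charcoal alone, 2 h, from -0.35 to 0.01 for CSF2 in tobacco on charcoal against herbal on charcoal, 2 h, from -0.14 to 0.23 for IL18 in herbal on charcoal against charcoal alone, 24 h, from -0.01 to 0.12 for IL1B in tobacco on charcoal against charcoal alone, 24 h, from -0.06 to 0.00 for IL1B in 24 h against 2 h, control. Without the filter the number of the 6 genes called was 0 (beside 1) for charcoal alone against control at 24 h, 3 (beside 5) for the electric heater against tobacco on charcoal at 2 h, and 1 (beside 2) for 24 h against 2 h in control. With median-of-ratios scaling it was 3 for the electric heater against tobacco on charcoal at 2 h. With a common FPKM sum it was 3 in that comparison, 3 (beside 1) for tobacco on charcoal against charcoal alone at 2 h, and 1 (beside 0) for herbal shisha against charcoal alone at 24 h. Fits within a time gave 3 for tobacco on charcoal against charcoal alone at 2 h and 0 (beside 3) for tobacco against herbal on charcoal at 24 h, and 413 genes (beside 842) for charcoal alone against control and 7 (beside 437) for tobacco against herbal on charcoal at 24 h, in fits with fewer libraries. The cause of the other shifts was not tested.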
